A study of Mus musculus with 16 samples.

Results

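Liver tumors carrying a mutated Ha-ras were set against control liver, with both groups taken from mice that had not been given phenobarbital (PB, an anticonvulsant and liver tumor promoter). The samples are 3 Ha-ras tumors and 3 control livers, picked by their titles from the 16 samples of the series. All 158 antibodies of the array and all 46 pairs of a phosphorylation-site antibody with an antibody labelled for the same protein are covered. The other 10 samples, 7 Ctnnb1-mutated tumors and 3 control livers, came from mice on PB and enter only the shared estimate of the spread and the last comparison.

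All groups were male C3H/HeJ mice. Per the design text every mouse was injected once with diethylnitrosamine (DEN, a liver carcinogen) at 10 or 90 µg per g body weight, aged 2 or 6 weeks, and then kept 28 to 36 weeks on food with 0.05% PB or without it. The characteristics of the Ha-ras tumors and of their control livers instead give plain water for 27 weeks, and a treatment protocol of 28 days is attached to the same samples. The labels tie no DEN dose or injection age to a sample. They do not say which codon of Ha-ras was mutated, whether the control livers came from tumor-bearing mice, or whether each sample came from a different animal. The p-values therefore rest on the variation among the samples at hand, part of which may be technical.

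Ras proteins are small GTPases that pass signals from growth factor receptors to a cascade of kinases in which MEK phosphorylates ERK. ERK acts on ribosomal S6 kinases (RSK) and transcription factors, and Ras also feeds the PI3K, Akt and mTOR pathway of growth and translation. Activating Ha-ras mutations are a common event in chemically induced mouse liver tumors, most of all in tumors grown without a promoter such as PB. Around the central vein, hepatocytes rich in glutamine synthetase and in CYP2E1 and CYP1A2 carry out much of the drug metabolism of the liver and depend on beta-catenin for their zone's enzymes.

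The assay was a reverse-phase protein array, on which lysates of ground frozen tissue are spotted and each antibody reads its target as fluorescence. Signals are given relative to the sample's median antibody, so that a value of 1 equals that median and a level of one antibody cannot be set against that of another. The median antibody read 0.469 to 0.545 fluorescence units in the tumors and 0.466 to 0.557 in the control livers. An antibody is called dim in a sample where it read under 2 times its secondary-antibody blank. By that limit 103 antibodies were dim in none of the 6 samples and 17 in all of them. The number of samples limits the precision. The lysates hold all cells of a tissue piece, so fewer cells of a type and less protein per cell cannot be told apart. HNF4A, a transcription factor that defines hepatocytes, read 3.53, 3.49 and 3.15 in the tumors against 3.27, 3.32 and 2.90 in the control livers. All 6 samples thus carried the hepatocyte marker at overlapping levels. None of the 158 antibodies targets a marker of bile duct, stellate, endothelial or immune cells from the lists drawn up for this work.

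Over 157 antibodies the root mean square log2 distance was 0.54 to 0.86 between a tumor and a control liver, 0.64 to 0.71 between tumors and 0.38 to 0.54 between control livers. Tumor 1 lay closer to control liver 1 (0.54) than to tumor 2 (0.69) or tumor 3 (0.71). Without the 10 antibodies of widest spread within groups, a choice that by itself shortens the distances within groups, a tumor and a control liver were 0.53 to 0.61 apart, tumors 0.29 to 0.42 and control livers 0.27 to 0.32. The samples numbered 1 were each the highest of their group in GLUL and SOCS3. Tumors also varied more than control livers, with a median SD of 0.21 log2 in tumors and 0.14 in control livers over 157 antibodies, and the larger SD was the tumors' for 106 of them.

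**Figure D1:**
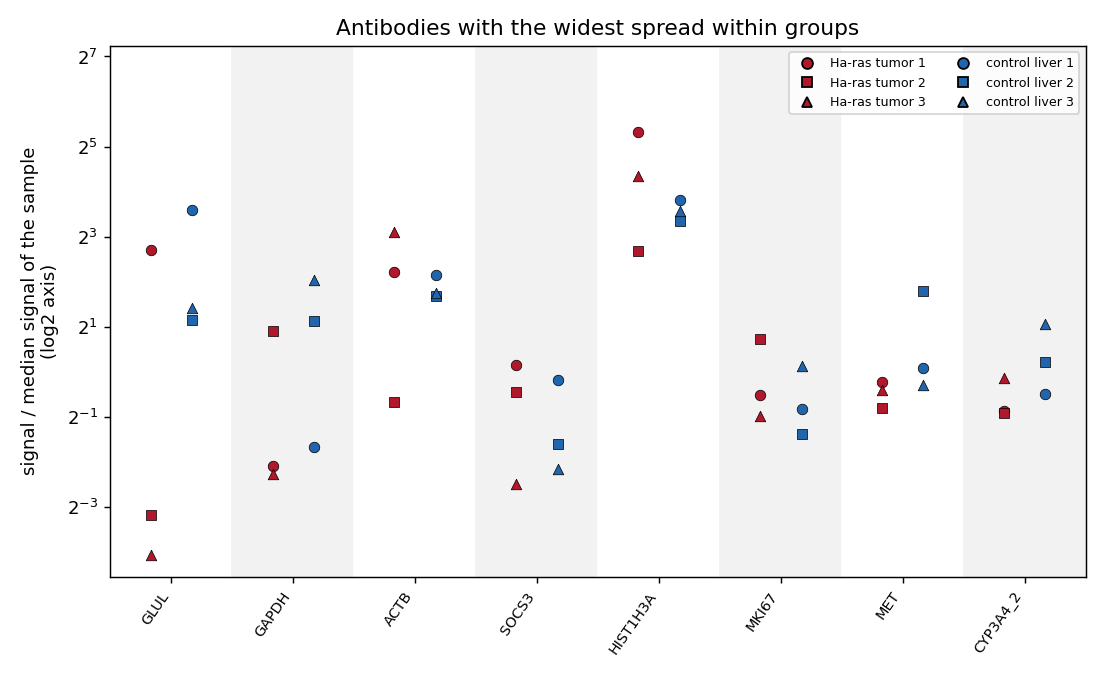
Relative signal (log2 axis) of 8 of the 10 antibodies with the widest spread within groups, 1 point per sample, Ha-ras tumors left and control livers right. GLUL was high in tumor 1 (6.55) and control liver 1 (12.1), and GAPDH was low in both (0.235 and 0.315) and in tumor 3 (0.208).

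Of the 158 antibodies, 22 (13.9%) passed an adjusted p under 0.05 in the limma fit, 16 higher in the tumors (10.1%) and 6 lower (3.8%). In all 22 the 3 tumors and the 3 control livers did not overlap, a pattern seen in 42 antibodies (26.6%), 27 with the tumors higher (17.1%) and 15 with the tumors lower (9.49%). Of the 16 that rose, 11 were phosphorylation-site antibodies, out of 50 such antibodies on the array, of which none fell. The other 108 antibodies, to total protein or histone modifications, gave 5 that rose and 6 that fell. Scaled to the Alexa647 reference rows in place of the median antibody, the split was 20 higher and 5 lower, and the authors' value table gave 20 higher and 4 lower. The median log2 difference of all antibodies was 0.17 with the Alexa647 scaling, 0.16 in that table and -0.00 with median scaling, so small differences hold relative to the median antibody only.

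**Figure D2:**
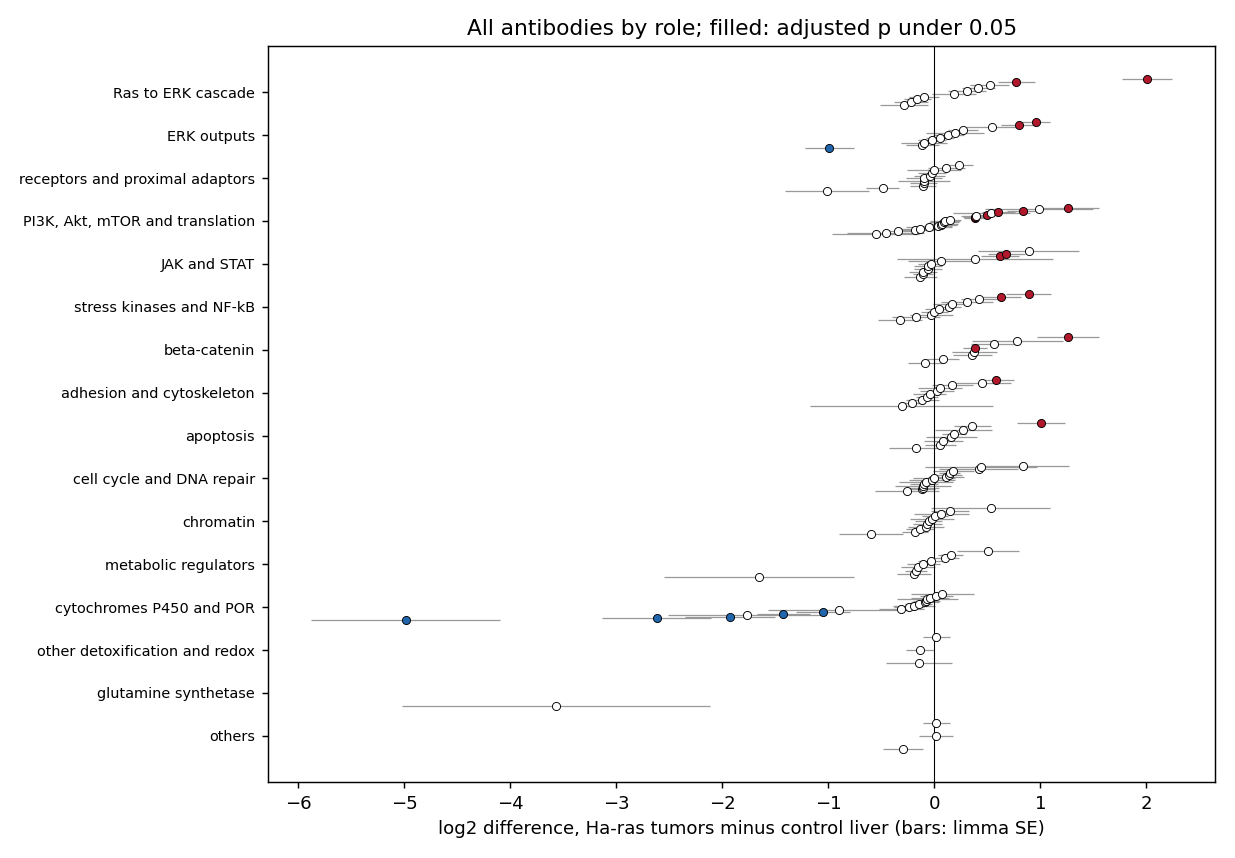
Log2 difference (Ha-ras tumors minus control liver, bars are limma standard errors) of every antibody, grouped by role, with filled points where the adjusted p was under 0.05. Of the 6 calls below 0, 5 lie in the cytochrome P450 and POR group, and the GSK3B antibodies are drawn in both groups they belong to.

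In the cascade from Ras to ERK the tumors carried more of the active forms of MEK and ERK, while no antibody to the amount of a kinase or of Ras itself passed. Phosphorylated ERK1 (MAPK3_P-T202/Y204, the doubly phosphorylated active kinase) read 13.0, 17.7 and 7.22 in the tumors against 3.10, 2.76 and 2.97 in the control livers. Even the lowest tumor, tumor 3, was above every control liver, and the control livers lay within a narrow band. The difference was 2.01 ± 0.24 on the log2 scale (SE, n = 3 and 3), or 4.02-fold (adjusted p = 8.2e-05). Phosphorylated MEK1 (MAP2K1_P-S217/S221, its activation loop) read 0.941, 1.26 and 0.713 in the tumors against 0.498, 0.640 and 0.533 in the control livers. It rose 1.71-fold (log2 0.77 ± 0.17, adjusted p = 0.0084), and the tumors kept the same order as for phosphorylated ERK1, with tumor 2 highest and tumor 3 lowest. Fitted with the Ha-ras tumors and their control livers only, it missed the threshold (adjusted p = 0.0796).

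Total ERK1 (MAPK3) read 4.22, 4.72 and 3.97 in the tumors against 3.09, 2.83 and 3.05 in the control livers. The groups did not overlap, but the log2 difference of 0.52 ± 0.18 missed the threshold (adjusted p = 0.085), passing in 5 of 17 alternative settings. The site antibody is labelled for ERK1 only.

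HRAS, the product of the mutated gene, read 1.14, 1.16 and 0.935 in the tumors and 1.15, 1.14 and 1.32 in the control livers (log2 -0.16 ± 0.13, adjusted p = 0.555). The antibody measures the amount of protein and is not labelled as specific to a mutant, so it does not check the genotype. MEK1 (MAP2K1, log2 -0.29 ± 0.23) and MEK2 (MAP2K2, -0.09 ± 0.14) showed no call, and BRAF_P-S445 was dim in all 6 samples. With blanks subtracted BRAF_P-S445 passed in the limma fit (log2 4.18, adjusted p = 0.021), as it did with the authors' value table (4.35, adjusted p = 0.0175). Both values rest on signals under 2 times the blank. Of the 10 antibodies from Ras to ERK, 2 were called higher (10.1% of all antibodies were) and 8 were not called, with a median log2 difference of 0.25, against -0.00 over all antibodies.

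Among the kinases and factors that ERK acts on, 1 site on the ribosomal S6 kinase RSK1 and 1 site labelled for RSK2 rose, and ELK1 fell. RPS6KA1_P-T573, the site that ERK phosphorylates on RSK1, read 4.90, 5.46 and 5.44 in the tumors against 2.85, 2.40 and 2.89 in the control livers. It was 1.95-fold higher (log2 0.96 ± 0.13, adjusted p = 2.2e-04), with a smaller spread between tumors than phosphorylated ERK1 had. RPS6KA3_P-T353/T356, labelled for the related kinase RSK2, read 0.922, 0.733 and 1.11 in the tumors against 0.559, 0.469 and 0.547, and was 1.74-fold higher (adjusted p = 0.0056). Tumor 3, the lowest in phosphorylated MEK1 and ERK1, was the highest here.

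The second RSK1 site, RPS6KA1_P-S380, read 1.96, 1.35 and 0.857 in the tumors and 1.11, 0.789 and 0.835 in the control livers, which overlap (log2 0.54 ± 0.24, adjusted p = 0.204). It passed without tumor 3 (0.85, adjusted p = 0.0180) and, with the authors' own processed values, at an adjusted p of 2.7e-04. The antibody is among the 12 whose row in that table could not be matched to the deposited intensities, so the signal behind that value is unknown. Total RSK1 (RPS6KA1) gave -0.10 ± 0.22.

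ELK1, a transcription factor that ERK phosphorylates, read 2.06, 1.41 and 1.59 in the tumors against 3.93, 3.005 and 3.085 in the control livers. It fell to a level 1.99-fold lower in the tumors (log2 -0.99 ± 0.23, adjusted p = 0.0097), without overlap. The call was lost with the Alexa647 scaling (-0.82, adjusted p = 0.0625) and in the authors' value table. The antibody is labelled for total ELK1, the only ELK1 antibody among the 158. DUSP4, a phosphatase that ERK induces and that switches ERK off, gave 0.27 ± 0.14 and was dim in 2 tumors and all 3 control livers. MYC (0.20 ± 0.27), MYC_P-T58/S62 (0.05 ± 0.13) and CREB1 (0.13 ± 0.14) did not pass. The RSK-related kinase RPS6KA4 gave -0.02 ± 0.13 and its site S235 gave -0.11 ± 0.16. Of 11 antibodies of this group, 2 rose, 1 fell and 8 did not pass, where 10.1% of all antibodies rose and 3.8% fell.

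**Figure D3:**
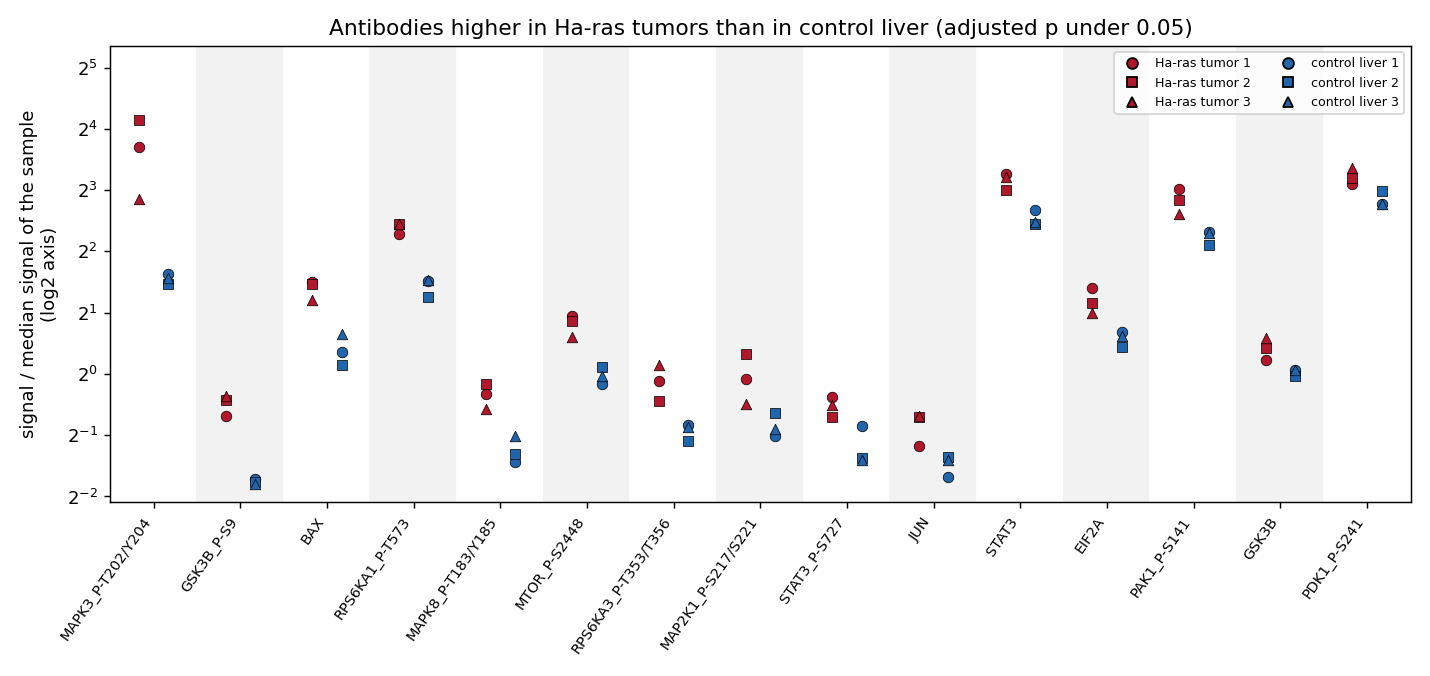
Relative signal (log2 axis) of 15 of the 16 antibodies that were higher in Ha-ras tumors at an adjusted p under 0.05, 1 point per sample, tumors left and control livers right. Every tumor lies above every control liver in each of the 15, by the widest margin in MAPK3_P-T202/Y204.

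No antibody to a growth factor receptor or its adaptors passed. EGFR, the receptor of epidermal growth factor, came closest. It read 0.260, 0.245 and 0.297 in the tumors, where it was dim throughout, against 0.373, 0.405 and 0.346 in the control livers. That is at least 1.18-fold lower in the tumors, with a log2 difference of -0.49 ± 0.16 (adjusted p = 0.053), and it passed in 2 of 16 alternatives. MET, the receptor of hepatocyte growth factor, gave -1.01 ± 0.40 (adjusted p = 0.122). It read 0.853, 0.576 and 0.753 in the tumors against 1.07, 3.50 and 0.815 in the control livers, among which control liver 2 stood apart. Without control liver 3 the MET difference was -1.43 and passed (adjusted p = 0.029). IGFBP1, a secreted binding protein of insulin-like growth factors, gave 0.23 ± 0.14 and IGF1R -0.11 ± 0.12. Of 11 receptor antibodies, 9 lay below 0 with median scaling but 2 with Alexa647 scaling, so no direction holds for the group.

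In the PI3K, Akt and mTOR group, 6 of 21 antibodies were called, all of them higher in the tumors, as were 10.1% of all antibodies. Of the 6, 2 are GSK3B antibodies that also count in the beta-catenin group. MTOR_P-S2448, a site on the growth kinase mTOR, read 1.92, 1.83 and 1.52 in the tumors against 0.894, 1.08 and 0.972 in the control livers. It rose 1.79-fold (log2 0.84 ± 0.15, adjusted p = 0.0024). Total MTOR was also higher in every tumor, at 2.18, 1.87 and 1.85 against 1.49, 1.47 and 1.53, but the log2 difference of 0.39 ± 0.14 did not pass (adjusted p = 0.101). Its autophosphorylation site MTOR_P-S2481 gave 0.09 ± 0.14.

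GSK3B_P-S9, the site at which upstream kinases including Akt and RSK inhibit glycogen synthase kinase 3 beta, read 0.619, 0.745 and 0.779 in the tumors against 0.305, 0.296 and 0.288 in the control livers. Each tumor was at least 0.619 and no control liver exceeded 0.305, and the 2.40-fold rise (log2 1.26 ± 0.30, adjusted p = 0.0097) passed in all 17 alternatives. The site was dim in control liver 2, where it read 0.156 fluorescence units against 0.0912 for its blank. Total GSK3B rose less, by 0.39 ± 0.11 (1.31-fold, adjusted p = 0.030), with the tumors at 1.18, 1.35 and 1.51 against 1.05, 0.974 and 1.05. That smaller call held in 6 of 17 alternatives and was lost without tumor 2 (adjusted p = 0.0799), tumor 3 (0.129), or control liver 1 (0.0656), 2 (0.128) or 3 (0.0630).

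Other calls of the group were of modest size. PDK1_P-S241, labelled PDK1 in the files, read 8.58, 9.22 and 10.3 in the tumors against 6.82, 7.95 and 6.82, a 1.30-fold rise (adjusted p = 0.0144). The antibody to total PDK1 was dim in all 6 samples, so the site has no usable total beside it. The PDK1_P-S241 call was lost without tumor 3 (adjusted p = 0.0693), control liver 1 (0.0671) or control liver 3 (0.0630). Other settings also lost it, among them no scaling (0.0514), quantile normalization (0.0828), blanks subtracted (0.0518) and the 2 groups alone (0.128). The translation factor labelled EIF2A read 2.63, 2.24 and 1.99 in the tumors against 1.61, 1.36 and 1.53 (1.52-fold higher, adjusted p = 0.0144). The site antibody labelled EIF2A_P-S51 was dim in all 6 samples, and the labels do not settle whether it binds the same protein. EIF2A was lost without tumor 1 (adjusted p = 0.0730) or control liver 2 (0.0745).

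Akt itself, which lies between PI3K and mTOR, showed no call. AKT1_P-S473 read 0.377, 0.477 and 0.399 in the tumors and 0.409, 0.505 and 0.508 in the control livers (log2 -0.18 ± 0.18), and AKT1 gave 0.07 ± 0.15. The site was dim in control livers 2 and 3. Its blank read 0.189 and 0.143 fluorescence units there, against 0.0488 to 0.0696 in the other samples. The direction of the AKT1_P-S473 difference is therefore not set by these signals. Ribosomal protein S6, phosphorylated by S6 kinase and by RSK, was uneven. RPS6_P-S235/S236 read 12.4, 7.45 and 7.02 in the tumors against 4.05, 3.08 and 6.69 in the control livers. The groups did not overlap, yet control liver 3 was nearly at the level of tumor 3, and the log2 difference of 0.99 ± 0.51 did not pass (adjusted p = 0.301). PIK3R1, the regulatory subunit of PI3K, was lower in every tumor without passing (-0.34 ± 0.13, adjusted p = 0.122).

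Among the JAK and STAT antibodies, those to STAT3 and to its serine-phosphorylated form were higher in the tumors, with no call for its tyrosine-phosphorylated form. STAT3, a transcription factor activated by cytokines, read 9.55, 8.05 and 9.28 in the tumors against 6.42, 5.48 and 5.57 in the control livers, a 1.54-fold rise (adjusted p = 0.027). STAT3_P-S727, a site that MAP kinases can phosphorylate, read 0.768, 0.613 and 0.708 in the tumors against 0.557, 0.385 and 0.378, a 1.60-fold rise (adjusted p = 0.0144). It was dim in 1 tumor and 2 control livers. The STAT3 call was lost without tumor 1 (adjusted p = 0.0939), tumor 3 (0.0894), control liver 2 (0.110) or control liver 3 (0.0798), and the S727 call without tumor 1 (0.0595), control liver 2 (0.0745) or control liver 3 (0.0630). STAT3_P-Y705, the site that JAK kinases phosphorylate, read 0.605, 0.535 and 0.563 in the tumors and 0.576, 0.653 and 0.606 in the control livers (log2 -0.11 ± 0.10).

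STAT5A, dim in all 6 samples, JAK1, JAK2, their activation sites and SOCS3, an inhibitor that STAT3 induces, did not pass. In all, 2 of the 11 JAK and STAT antibodies were called, both higher, and 10.1% of all antibodies were called higher.

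Among the stress-activated kinases, the calls lay in the JNK pathway and none in p38. MAPK8_P-T183/Y185, the active form of JNK1, read 0.794, 0.891 and 0.670 in the tumors against 0.371, 0.406 and 0.494 in the control livers, a 1.85-fold rise (log2 0.89 ± 0.21, adjusted p = 0.0097). JUN, the transcription factor after which the JNK kinases are named, read 0.445, 0.611 and 0.624 in the tumors against 0.311, 0.391 and 0.377. It was dim in tumor 3 and in all 3 control livers. With the control livers set at their dim limit it was 1.12-fold higher in the tumors. That is no lower bound, because tumor 3 was dim too. The fit on the measured signals passed (adjusted p = 0.037). That call held in 8 of 17 alternatives, and was lost without tumor 2 (adjusted p = 0.126), tumor 3 (0.129), or control liver 1 (0.153), 2 (0.0660) or 3 (0.0630).

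MAP2K4_P-S257/T261, on a kinase that activates JNK, was higher in each tumor without passing (log2 0.43 ± 0.17, adjusted p = 0.134), and it passed with the Alexa647 scaling and in the authors' value table. MAPK8 gave 0.31 ± 0.25. The active p38 kinase MAPK14_P-T180/Y182 read 2.93, 2.76 and 2.31 in the tumors and 3.26, 3.55 and 3.14 in the control livers. Every tumor was below every control liver, the opposite of JNK, but at -0.32 ± 0.21 the difference did not pass (adjusted p = 0.420). NFKBIA_P-S32, the site that releases NF-kB, gave 0.16 ± 0.17.

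The beta-catenin group is of interest because the other tumors of the series carry its mutation. CTNNB1, beta-catenin itself, read 7.92, 6.68 and 7.98 in the Ha-ras tumors against 4.17, 4.15 and 4.77 in the control livers. The groups lay far apart, but the shared spread, which includes the Ctnnb1 tumors, was wide and the log2 difference of 0.78 ± 0.43 did not pass (adjusted p = 0.321). In a fit of the Ha-ras tumors and their control livers alone the same difference had an SE of 0.13 and passed (adjusted p = 0.0103). CTNNB1_P-S675 (0.38 ± 0.21) and the degradation-marking site CTNNB1_P-T41/S45 (0.36 ± 0.18) were each higher in every tumor and did not pass. Control liver 2 was dim for both sites. Of the 8 antibodies of this group, the calls were those of GSK3B and its S9 site, given above. APC, a scaffold of the destruction complex, was dim in all 6 samples.

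Glutamine synthetase (GLUL), a target of beta-catenin found in hepatocytes next to the central vein, read 6.55, 0.111 and 0.0595 in the tumors against 12.1, 2.23 and 2.69 in the control livers. Tumors 2 and 3 were dim, while tumor 1 was above control livers 2 and 3. The log2 difference was -3.57 ± 1.45 (adjusted p = 0.143). Without tumor 1 only dim tumors are left, GLUL was at least 15.7-fold lower in them, and the fit passed (adjusted p = 0.0044).

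The cytochromes P450, haem enzymes that oxidise drugs and steroids, and their electron donor POR held 5 of the 6 lower calls. Of 17 antibodies in this group 5 fell and 12 showed no call, with a median log2 difference of -0.24, while 3.8% of all antibodies fell. In 9 of the 17 every tumor lay below every control liver, as in 9.49% of all antibodies. With median scaling 15 of the 17 lay below 0, and with Alexa647 scaling 10 did, 5 of them calls in that setting too. CYP2E1_2, against the P450 that oxidises ethanol, read 3.28, 4.70 and 3.76 in the tumors against 16.8, 20.9 and 38.2 in the control livers. CYP2E1_1, another antibody to that enzyme, read 0.380, 0.283 and 0.379 in the tumors against 1.23, 1.33 and 1.36. Both fell in all 3 tumors without overlap, by 2.62 ± 0.51 (adjusted p = 0.0038) and 1.93 ± 0.43 (adjusted p = 0.0082) on the log2 scale, and 1 tumor was dim for each.

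CYP2C8 read 1.04, 0.829 and 1.01 in the tumors against 2.86, 2.91 and 2.01 in the control livers and was 2.68-fold lower (adjusted p = 0.0024). POR read 10.7, 10.0 and 8.12 in the tumors against 20.4, 21.1 and 18.0 and was 2.07-fold lower (adjusted p = 0.0097), a call that the authors' value table did not give (adjusted p = 0.0601). For both, the tumors lay close together and well below every control liver. CYB5A, cytochrome b5, which can also pass electrons to P450s, gave -0.19 ± 0.20 and did not pass.

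CYP2B6_3 read 7.21, 0.248 and -18.9 in the tumors against 64.7, 46.4 and 25.6 in the control livers, the widest fitted difference of the array. Tumor 2 was dim, and tumor 3 was negative and dropped from the fit, which gave -4.99 ± 0.89 from the other 2 tumors (adjusted p = 0.0024). These lay far apart, so its size is poorly set. Without tumor 2, which leaves tumor 1 alone, the log2 difference was -2.56. Without tumor 1, which leaves the dim tumor 2 alone, it was -7.42, or 161-fold with tumor 2 set at its dim limit. That fold is no firm bound, since tumor 3 read much further below 0 (-18.9) than the limit lies above it. With the Ha-ras tumors and their control livers fitted alone, CYP2B6_3 did not pass (adjusted p = 0.0796). CYP2B6_1 (-0.07 ± 0.29) and CYP2B6_2 (0.02 ± 0.16), labelled for the same protein, did not follow it. The human names do not tell which mouse enzyme of these families an antibody binds.

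CYP1A2_1, a P450 of the zone around the central vein, read 0.915, 1.203 and 1.33 in the tumors against 4.15, 4.13 and 3.41 in the control livers. The groups were far apart, yet in the fit of all groups the log2 difference of -1.77 ± 0.75 did not pass (adjusted p = 0.156). It passed in the fit of these 2 groups alone (adjusted p = 0.0018). CYP1A2_2, the other antibody to this enzyme, read 0.721, 0.873 and 0.729 in the tumors and 0.747, 0.863 and 0.772 in the control livers (-0.04 ± 0.18). CYP1A2_2 lay near its dim limit, which was 0.760, 0.588 and 0.722 in the tumors and 0.712, 0.646 and 0.482 in the control livers, and tumor 1 was dim. The paired antibodies thus gave different answers for CYP1A2, unlike those for CYP2E1, but CYP1A2_2 had little signal above background.

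No other P450 antibody passed. CYP3A4_1 read 6.96, 7.08 and 7.17 in the tumors against 10.3, 8.32 and 7.87 in the control livers, without overlap (log2 -0.31 ± 0.22), and CYP3A4_2 gave -0.90 ± 0.66 with 2 tumors and 1 control liver dim. CYP3A5, also lower in every tumor, gave -0.24 ± 0.14, CYP2D6 -0.15 ± 0.13, CYP4F2 -0.09 ± 0.13, CYP1A1_1 0.07 ± 0.30 and CYP1A1_2 -0.08 ± 0.13. Of the other detoxification enzymes, the glucuronidating UGT1A1 (-0.14 ± 0.32) and the paraoxonases PON1 (-0.14 ± 0.13) and PON3 (0.02 ± 0.13) did not pass.

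For the hepatocytes around the central vein the array holds 5 marker antibodies, to GLUL, CYP2E1 and CYP1A2, of which 4 are themselves P450 antibodies. Of the 5, both CYP2E1 antibodies fell (3.8% of all antibodies did) and 3 did not overlap between the groups with the tumors lower (9.49% of all). GLUL, the marker that is no P450, was dim in tumors 2 and 3 but read 6.55 in tumor 1, above control livers 2 and 3, and did not pass. Summed over the 5, the relative signal was 6.26 to 11.9 in the tumors and 29.5 to 46.4 in the control livers. That sum weights each antibody by its own signal, so CYP2E1_2 made up most of it in control liver 3 and GLUL in tumor 1. The part of these cells in the lower P450 signals was not tested.

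**Figure D4:**
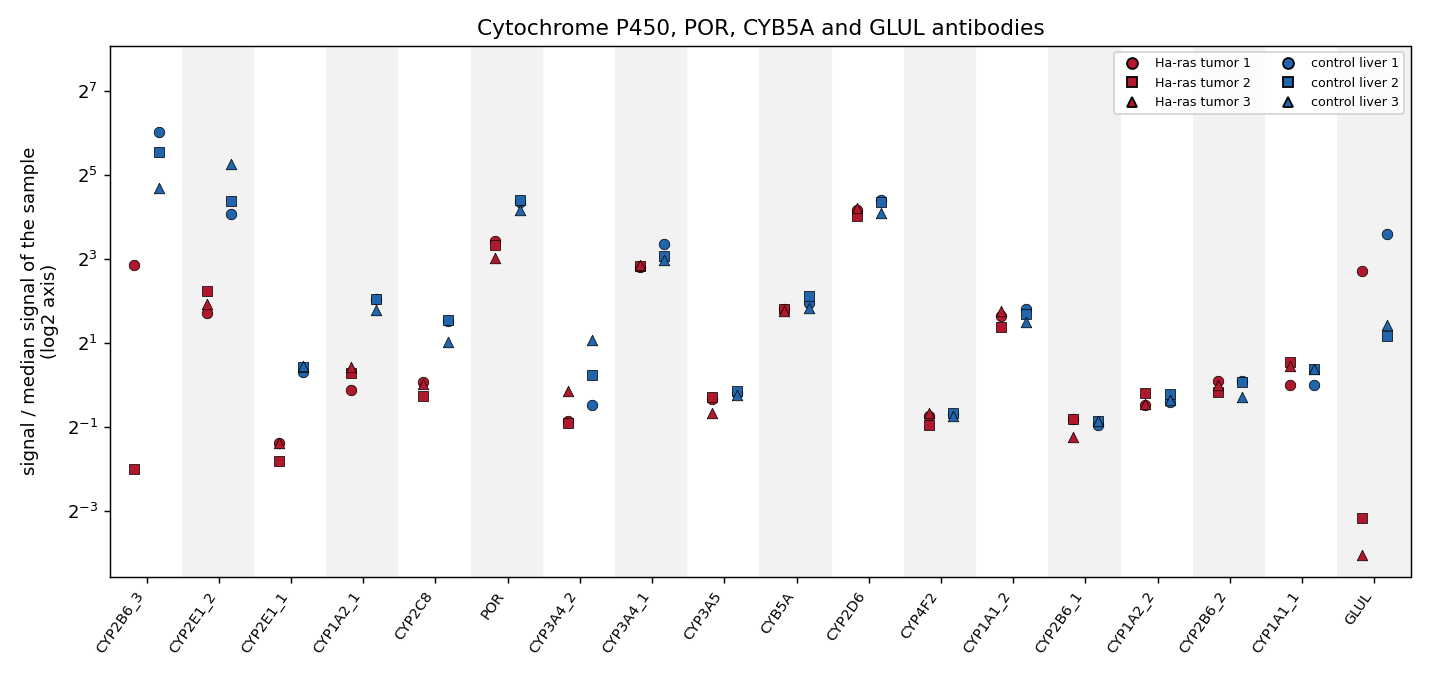
Relative signal (log2 axis) of the 17 cytochrome P450, POR and CYB5A antibodies and of GLUL, 1 point per sample, Ha-ras tumors left and control livers right. The negative CYP2B6_3 value of tumor 3 (-18.9) has no logarithm and is not drawn, and the antibodies at the left are those with the largest decrease in tumors.

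Of 8 antibodies in the apoptosis group, BAX rose and the other 7 did not pass, and 10.1% of all antibodies rose. BAX, which opens the mitochondrial outer membrane in apoptosis, read 2.83, 2.77 and 2.32 in the tumors against 1.28, 1.10 and 1.57 in the control livers, a 2.01-fold rise (log2 1.01 ± 0.23, adjusted p = 0.0082) that passed in all 17 alternatives. BCL2L1, a counterpart that protects from apoptosis, read 2.24, 2.75 and 1.86 in the tumors against 1.63, 1.83 and 1.82. It was higher in every tumor but missed the threshold (0.36 ± 0.17, adjusted p = 0.265).

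PAK1_P-S141, a site of the cytoskeletal kinase PAK1, was the only call among 10 adhesion and cytoskeleton antibodies, where 10.1% of all antibodies were called higher. It read 8.11, 7.18 and 6.11 in the tumors against 4.96, 4.29 and 4.94 in the control livers (log2 0.59 ± 0.17, adjusted p = 0.026). It did not pass under quantile normalization (adjusted p = 0.234), nor without tumor 1 (0.118), tumor 2 (0.0714), control liver 2 (0.121) or control liver 3 (0.0516). Total PAK1 gave -0.07 ± 0.10. The focal adhesion kinase PTK2 (-0.11 ± 0.16), its relative PTK2B (-0.21 ± 0.12) and the cadherin CDH2 (0.45 ± 0.27) did not pass.

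Cell cycle proteins, chromatin marks and metabolic regulators gave no call in the limma fit, with 15, 11 and 9 antibodies. Cyclin A2 (CCNA2), a cyclin of DNA replication, read 17.5, 11.8 and 6.57 in the tumors and 8.77, 5.21 and 5.18 in the control livers (log2 0.84 ± 0.43, adjusted p = 0.301), with tumor 3 below control liver 1. The proliferation marker MKI67 read 0.706, 1.66 and 0.506 in the tumors and 0.563, 0.384 and 1.10 in the control livers (0.44 ± 0.53). Cyclin D1 (CCND1), a cyclin that ERK signalling induces in many cells, overlapped at 5.28, 2.88 and 3.50 in the tumors and 5.28, 3.47 and 3.04 in the control livers. For all 3 proteins the groups overlapped.

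PRKAA1_P-T172, the active form of the energy sensor AMPK, read 6.26, 6.06 and 4.70 in the tumors against 4.96, 3.51 and 3.57 (log2 0.51 ± 0.29, adjusted p = 0.367). GAPDH, a glycolytic enzyme often taken as a loading control, read 0.235, 1.87 and 0.208 in the tumors and 0.315, 2.20 and 4.12 in the control livers. ACTB, another such control, read 4.67, 0.631 and 8.60 in the tumors and 4.46, 3.21 and 3.36 in the control livers. Both were among the 3 antibodies with the widest spread within groups, and neither was used for scaling. The log2 difference of GAPDH was -1.66 ± 0.89 (adjusted p = 0.321), and it passed without tumor 2 (-2.68, adjusted p = 0.0483) or control liver 1 (-2.74, adjusted p = 0.0415). HDAC2, a histone deacetylase, was lower in each tumor without passing (-0.18 ± 0.12), and PPARA_3, 1 of 3 antibodies to the fatty acid sensor PPAR alpha, was dim in all 3 tumors.

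Setting each site against its total protein asked whether phosphorylation changed beyond the amount of the protein. Of 46 pairs, 4 passed (8.7%), 3 with a higher ratio in the tumors (6.52%) and 1 with a lower ratio (2.17%). In 19 pairs (41.3%) the groups did not overlap. The log2 ratio of MAPK3_P-T202/Y204 to MAPK3 was 1.62, 1.91 and 0.86 in the tumors against 0.01, -0.04 and -0.04 in the control livers. The difference of 1.49 ± 0.23 (2.80-fold, adjusted p = 5.4e-04) was smaller than that of the site alone by the 0.52 of total ERK1.

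For RPS6KA1_P-T573 to RPS6KA1 the log2 ratio was -2.36, -2.08 and -1.61 in the tumors against -3.04, -3.34 and -2.85, a difference of 1.06 ± 0.22 (adjusted p = 0.0049). That call held in 16 of 17 alternatives and was lost under quantile normalization (0.76, adjusted p = 0.113). For MAP2K1_P-S217/S221 to MAP2K1 the log2 ratio was -6.08, -5.44 and -6.83 in the tumors against -7.22, -7.33 and -6.98, a difference of 1.06 ± 0.30 (adjusted p = 0.036). Tumor 3 exceeded control liver 3 by little in this pair, and the call held in 8 of 17 alternatives. It was lost without tumor 1 (adjusted p = 0.0908), tumor 2 (0.0872), control liver 1 (0.0910) or control liver 2 (0.103). Other settings that lost it include quantile normalization (adjusted p = 0.0636), the 2 groups alone (0.0685) and the authors' value table (0.0527).

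STAT3_P-Y705 to STAT3 was the pair with a lower ratio, at -3.98, -3.91 and -4.04 in the tumors against -3.48, -3.07 and -3.20 in the control livers. The log2 difference was -0.73 ± 0.18 (adjusted p = 0.0169), made up of -0.11 for the site and 0.62 for STAT3. STAT3_P-S727 kept pace with STAT3 (0.06 ± 0.20 for the ratio). The STAT3_P-Y705 ratio was no longer called without tumor 1 (adjusted p = 0.0593) or control liver 2 (0.103).

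Several pairs fell just short of the threshold. PAK1_P-S141 to PAK1 gave 0.66 ± 0.20 (adjusted p = 0.052) and GSK3B_P-S9 to GSK3B 0.88 ± 0.30 (adjusted p = 0.057). RPS6_P-S235/S236 gave 1.45 ± 0.54 against RPS6_2 and 1.54 ± 0.58 against RPS6_1 (adjusted p = 0.083 each). In each of these 4 ratios the tumors lay above all control livers, and the PAK1 ratio passed without tumor 3 (0.85, adjusted p = 0.0160). MET_P-Y1349 to MET gave 0.97 ± 0.43 (adjusted p = 0.127) and passed without control liver 3 (adjusted p = 0.0438). EGFR_P-Y1045 to EGFR gave 0.60 ± 0.20 (adjusted p = 0.055), but this site was dim in all 6 samples. MAPK8_P-T183/Y185 to MAPK8 gave 0.58 ± 0.25 (adjusted p = 0.118) and MTOR_P-S2448 to MTOR 0.45 ± 0.17 (adjusted p = 0.083).

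**Figure D5:**
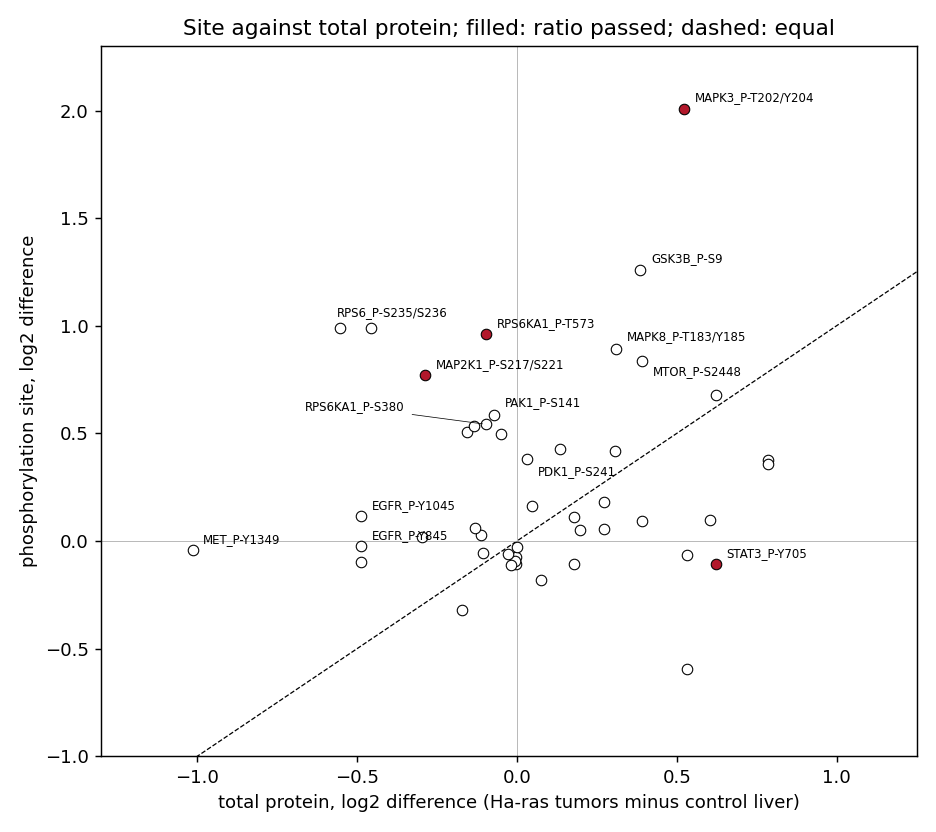
Log2 difference of the phosphorylation site (vertical axis) against that of the total protein (horizontal axis), Ha-ras tumors minus control liver, for 46 pairs, with names only where the unadjusted p of the ratio was under 0.05. Filled points are the 4 pairs whose ratio passed, 3 above the dashed line of equal change and STAT3_P-Y705 below it.

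Whether the tumor effect differed from that in the other arm was tested as the Ha-ras difference minus the Ctnnb1 difference, each against its own control livers. Of 158 antibodies 8 passed (5.06%), and because genotype and PB treatment go together, they cannot be told apart. Phosphorylated ERK1 averaged 12.6 ± 5.24 in Ha-ras tumors and 2.94 ± 0.174 in their control livers (SD, n = 3 each). It averaged 2.53 ± 0.340 in Ctnnb1 tumors (n = 7) and 2.54 ± 0.173 in control livers on PB (n = 3). The effects differed by 2.02 ± 0.31 log2 (adjusted p = 0.0018).

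The same test passed for phosphorylated MEK1, RPS6KA1_P-T573, RPS6KA3_P-T353/T356, PDK1_P-S241, STAT3, STAT3_P-S727 and CYP2B6_3. In the first 4 and in the STAT3 antibodies the Ha-ras effect was the higher one, and in CYP2B6_3 the lower one. STAT3 averaged 8.96 ± 0.801 in Ha-ras tumors against 5.83 ± 0.518 in their control livers, and 4.93 ± 0.968 in Ctnnb1 tumors against 5.95 ± 0.588 in control livers on PB. CYP2C8, both CYP2E1 antibodies, POR, GSK3B_P-S9, MTOR_P-S2448 and BAX, which were called in Ha-ras tumors, did not pass this test of a difference between the arms.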

How the data were processed

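Sample groups and numbers came from the titles. The deposited intensity values are relative fluorescence, per the file headers. A file has 183 rows: 158 antibodies to 101 proteins, 19 secondary-antibody blanks and 6 Alexa647 rows. No source used here says whether the authors had scaled these intensities. The authors' deposited value table holds log2 values. For 146 antibodies these equal the log2 intensity less a blank (none for 1), scaled per sample and shifted by an offset per antibody and arm. The match held to a tolerance of 0.01 log2 in 12 or more of the 16 samples. That table was used as an alternative. In it the rows of CDKN1B and CDKN1B_P-S10 carry each other's values relative to the sample files.

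Intensities were log2 transformed and centred on each sample's median (155 antibodies with no non-positive value), with non-positive values missing and blanks not subtracted. One limma fit (R 4.3.3, limma 3.58.1) of 4 group means over all 16 samples, with 12 residual and 2.65 prior degrees of freedom, gave the differences, with two-sided p-values adjusted by Benjamini-Hochberg over 158 antibodies, or 46 pairs, and a threshold of 0.05. The contrast of the arms' effects was added after the data were seen. Where an antibody was dim in a whole group, its fold was taken with that group set at 2 times the blank (the median blank for the 12 without a match). It is a bound only where no sample of the other group was dim. Tested on simulated data for the Ha-ras comparison (155 antibodies, 40 changed, 20 runs), the fit found 46.6% of the antibodies changed by 0.5 log2 and 86.5% of those changed by 1 log2.

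The comparison, the role lists and the antibodies to name were chosen with earlier results of these data known. Some antibodies are not reported here by name. Otherwise, named were all calls and other antibodies to the same proteins, up to 4 members of each role list with the smallest p, antibodies to Ras, MEK, ERK, Akt, beta-catenin, GLUL and P450s, and 10 pairs. Others are named beyond the rule. Genomic positions do not apply to an antibody array.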

Additional observations from a re-analysis of the deposited data

Results flagged for a closer look

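Of the 158 antibodies, 8 (5.06%) had a tumor effect in the Ha-ras arm that differed from that in the Ctnnb1 arm at an adjusted p under 0.05 in limma. The Ha-ras effect minus the Ctnnb1 effect was 2.022 log2 for MAPK3_P-T202/Y204, 1.065 for MAP2K1_P-S217/S221, 0.915 for RPS6KA1_P-T573 and 1.042 for RPS6KA3_P-T353/T356. For these sites from MEK to RSK, the Ha-ras tumors read above their control livers and above the Ctnnb1 tumors.

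For STAT3 the difference of effects was 0.9108 and for STAT3_P-S727 it was 1.072, with Ctnnb1 effects of -0.29 and -0.39. It was 0.4831 for PDK1_P-S241. CYP2B6_3 went the other way, at -5.15, with 1 Ha-ras tumor negative and left out and another dim. PB treatment and genotype cannot be told apart in any of these.

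A secondary-antibody blank, which carries no primary antibody, also separated the groups. Blank ms_1 read 1.587, 1.742 and 1.752 fluorescence units in the Ha-ras tumors against 1.139, 1.545 and 0.668 in the control livers, so its lowest tumor was above its highest control liver. It is the blank matched to CDH2 and RPS6KB1_P-T389, neither of which was called, and the other 18 blanks overlapped between the groups.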

How the results depend on the processing

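With 17 alternatives, the antibody calls numbered 16 to 26, against 22 as reported, and 16 to 20 with a sample left out, the fewest without control liver 2. Of the 22, 14 held with any of the 6 samples left out and 9 in every alternative. Under quantile normalization 9 pairs were called, and only 2 of the 4 reported pair calls were among them. The MAP2K1_P-S217/S221 and RPS6KA1_P-T573 ratios were lost there. In the 2 groups alone 7 pairs were called, among them 3 of the 4. All 4 were kept among the 7 of 29 pairs called with dim antibodies left out and the 11 called with array weights. With a sample left out 2 to 5 pairs were called, the fewest without tumor 1 or control liver 2. No difference changed sign where it was called. Whether the replicate numbers pair the samples is not known. Same-numbered deviations correlated at 0.653, 0.224 and 0.0932, and only tumor 1 correlated best with its own number. Deviations within groups of 3 samples cannot settle it. With the replicate number as a block, 16 antibodies and 7 pairs were called, 13 of the 16 among the 22 reported. For a single antibody or pair, 78 values lost a call and 58 gained it among 99 results under the alternatives. Dim antibodies limit the size of JUN, EGFR and GLUL differences, and 12 antibodies have only an approximate blank.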
